A study of Homo sapiens with 6 samples.

Results

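The genes described are the SR proteins, the heterogeneous nuclear ribonucleoproteins (hnRNPs) and the CDC2-like kinases (CLKs), as their mRNAs were measured in MM1.S cells after 6 h of exposure to an inhibitor of protein disulfide isomerase. They were chosen by symbol alone, as the SRSF genes, TRA2A and TRA2B, the genes whose symbol begins with HNRNP, and CLK1 to CLK4. The rule gave 37 of the 11048 genes listed, of which 13 encode SR proteins, 20 hnRNPs and 4 CLKs. No member was lost to a filter applied here, since all listed genes were tested. Genes that match the rule but are not listed, such as HNRNPH2 and SRSF12, are absent from the counts and family totals. MM1.S is an established line of multiple myeloma, a cancer of plasma cells. The cells were exposed to DMSO, the vehicle, to 3 µM CCF642, or to 3 µM of its analogue CCF642-34, and each of the 3 groups was represented by 2 RNA-seq libraries. CCF642 is a small molecule reported to inhibit the disulfide isomerase PDIA1, an enzyme of the endoplasmic reticulum that forms and rearranges disulfide bonds in secreted proteins. All libraries were made from 1 line, and no label says whether the 2 libraries of a group came from separate cultures, so that p-values here measure only the spread between these libraries, which may be technical.

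SR proteins carry an RNA recognition motif and a tail rich in arginine and serine. They bind exonic enhancers and recruit the spliceosome to nearby splice sites. CLKs phosphorylate serines of that tail and release SR proteins from nuclear speckles into the nucleoplasm. The hnRNPs coat nascent transcripts, and many of them oppose SR proteins at exons, while some also govern the export, stability and translation of mRNA. Many genes of these families limit their own mRNA, because their protein promotes inclusion of a poison exon or retention of an intron that sends the transcript to nonsense-mediated decay.

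The deposited values were CPM values, in which the reads counted on a gene are scaled so that all libraries share the same total. The libraries held between 20567313 and 28459677 reads. Levels in single libraries are given in CPM as deposited, whereas log2 fold changes were computed on log2(CPM + 1) after scaling by trimmed mean of M values (TMM), which places the bulk of genes near no change. With scaling to library size alone, the all-gene median moved from -0.0068 to -0.13 with CCF642, from 0.0062 to -0.078 with CCF642-34, and from 0.0091 to 0.051 between the compounds. A gene was called when its adjusted p was under 0.05 in limma's moderated test, with Benjamini-Hochberg adjustment over all genes. Of 10 plasma cell markers, 9 were measured, and their summed level lay between 5179 and 5682 CPM in the 6 libraries. Of 12 markers of other cell types, 6 were listed. Their summed level was 11.8 to 12.1 CPM with DMSO, 18.6 to 18.7 with CCF642 and 14.4 in both libraries with CCF642-34. Most of the rise was in COL1A1, with means of 1.29, 9.76 and 3.13 CPM in that order. The means of CD3E, EPCAM and HBB were also higher with both compounds. KRT8 was lower, at 1.70, 0.28 and 0.44, as was PECAM1, at 2.76, 1.62 and 1.99. The part of these markers in the results was not tested.

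The families moved differently as totals. The summed CPM of the 4 CLKs was 487 ± 5.58 (SD, n = 2) with DMSO, 841 ± 18.0 with CCF642 and 608 ± 6.28 with CCF642-34. No library overlapped another group in this sum, which with the compounds stood at 173% and 125% of DMSO. The summed CPM of the 13 SR proteins was 2655 ± 23.5 with DMSO, 2685 ± 34.8 with CCF642 and 2594 ± 24.9 with CCF642-34. In deposited CPM the family total thus stayed within a few percent of the control, while its members moved in both directions. The summed CPM of the 20 hnRNPs was 8683 ± 5.86 with DMSO, 7306 ± 222 with CCF642 and 7214 ± 15.2 with CCF642-34, or 84.1% and 83.1% of DMSO. After TMM scaling the same percentages were 190% and 133% for CLKs, 111% and 104% for SR proteins, and 92.3% and 88.4% for hnRNPs. Together the 37 genes took 1.18% of all reads in DMSO libraries, against 1.08% for CCF642 and 1.04% for CCF642-34.

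With CCF642, 15 of the 37 genes rose and 14 fell against DMSO, which is 78.4% of them against 63.1% of all genes. Among all genes 31.8% rose and 31.3% fell. With CCF642-34, 15 rose and 16 fell, 83.8% against 57.6% of all genes, of which 29.7% rose and 27.9% fell. Scaled to library size alone, 9 members rose and 16 fell with CCF642, and 10 rose and 19 fell with CCF642-34, while among all genes 2528 rose and 4738 fell in place of 3514 and 3459 with CCF642, and 2497 rose and 3972 fell in place of 3282 and 3080 with CCF642-34. Both comparisons used the same DMSO libraries, so their calls are not independent of each other. All members had a mean above 5 CPM, whereas the listed genes include lower ones. Among the 9390 genes with a mean of at least 5 CPM, fitted alone, 6370 were called with CCF642 and 5915 with CCF642-34. Part of the higher share among members may thus go with their level, which was not tested. Calls were common among all genes, and most changes in these families were small. A single member, CLK1 with CCF642, reached a fold change of at least 2, whereas 6.49% of all genes did so in either direction with CCF642 and 4.5% did so upward. With CCF642-34 no member did, against 3.88% of all genes. The median log2 fold change with CCF642 was 0.56 over the CLKs, 0.20 over the SR proteins and -0.091 over the hnRNPs, beside -0.0068 over all genes. With CCF642-34 the medians were 0.31, 0.14 and -0.21, beside 0.0062. With scaling to library size alone these family medians kept their signs. That of the SR proteins depended on TRA2A and TRA2B. Over the 11 SRSF genes the median was 0.060 with CCF642 and -0.041 with CCF642-34, and library size alone gave -0.074 and -0.13.

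**Figure D1:**
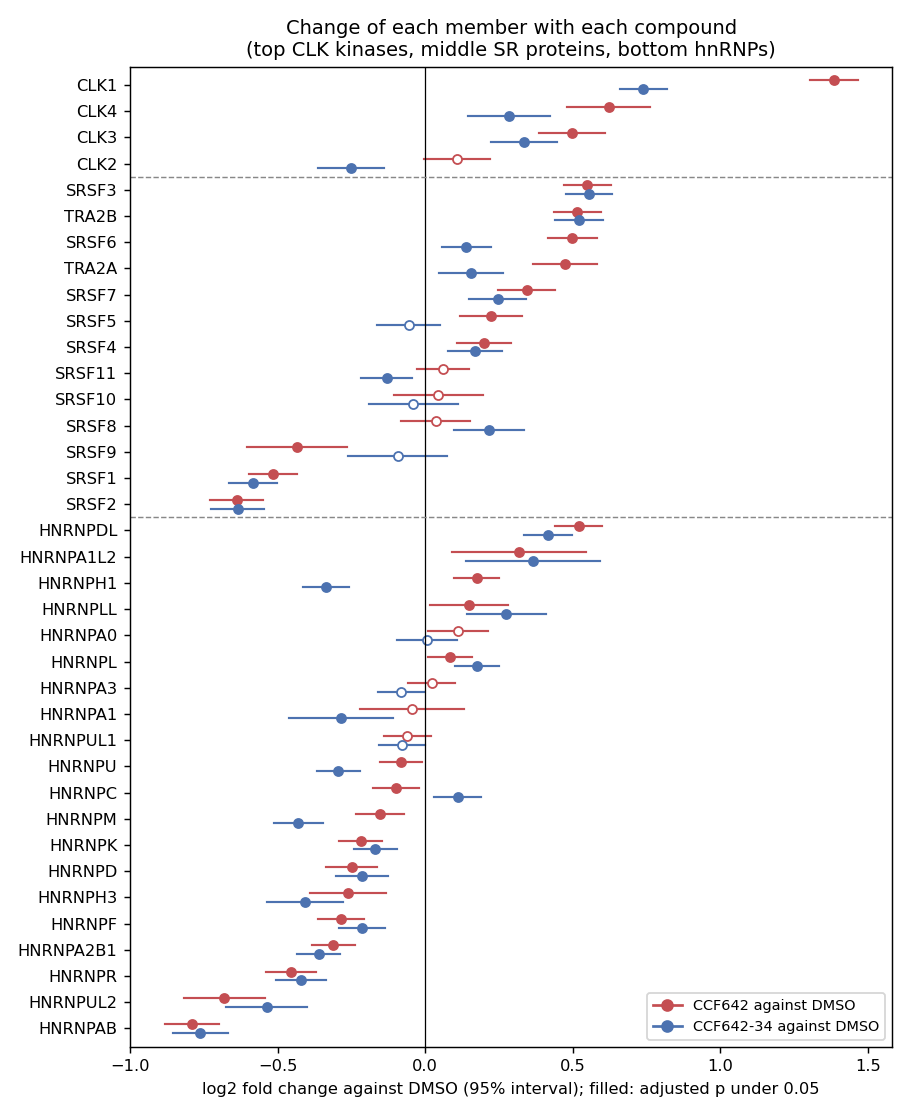
Log2 fold change of each of the 37 genes against DMSO (x axis, log2 of TMM-scaled CPM + 1) with CCF642 (red) and CCF642-34 (blue); bars are 95% intervals from limma and filled points have an adjusted p under 0.05. CLK1 lay farthest to the right at 1.39 with CCF642, and HNRNPAB farthest to the left at -0.79.

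CLK1 mRNA, which encodes the best studied kinase of the family, was measured at 229 and 228 CPM in the DMSO libraries, 546 and 545 with CCF642 and 355 and 364 with CCF642-34. No groups overlapped, and the CCF642 libraries were the highest. The log2 fold change against DMSO was 1.39 (SE 0.040, adjusted p = 1.65e-32) with CCF642 and 0.74 (SE 0.040, adjusted p = 2.78e-21) with CCF642-34, or 2.61-fold and 1.67-fold in limma's fit. CLK1 made up 47.4% and 46.6% of the summed CLK reads with DMSO, 64.0% and 65.8% with CCF642, and 58.8% and 59.4% with CCF642-34. CLK4, the closest paralogue of CLK1, was measured at 40.7 and 39.0 CPM with DMSO, 57.4 and 55.4 with CCF642 and 46.0 and 45.6 with CCF642-34. It followed the same order of groups as CLK1, again without overlap. Its log2 fold changes were 0.62 (SE 0.069, adjusted p = 8.67e-11) and 0.28 (SE 0.069, adjusted p = 5.00e-04) in limma.

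CLK3, which like its paralogues phosphorylates SR proteins, was measured at 79.2 and 77.2 CPM with DMSO, 102 and 99.9 with CCF642 and 90.5 and 95.2 with CCF642-34. Both compounds raised it, by a log2 change of 0.50 (SE 0.055, adjusted p = 7.55e-11) and 0.33 (SE 0.055, adjusted p = 1.29e-06) in limma. CLK2 was measured at 134 and 146 CPM with DMSO, 148 and 128 with CCF642 and 112 and 108 with CCF642-34. For CLK2, the CCF642 libraries enclosed those of DMSO, whereas the CCF642-34 libraries lay below both groups. CLK2 was not called with CCF642, at a log2 change of 0.11 (95% interval -0.0048 to 0.22, limma adjusted p = 0.0893), and fell with CCF642-34, with a log2 change of -0.25 (SE 0.056, adjusted p = 1.35e-04 in limma). The latter call was lost in a linear model of each gene alone, without variance shared across genes. With 1 library left out, the value of CLK2 with CCF642 ran from 0.0063 to 0.21, and it was called higher without DMSO replicate 2 (0.17) or without CCF642 replicate 2 (0.21). Thus 3 of 4 CLKs rose with either compound, beside 31.8% of all genes with CCF642 and 29.7% with CCF642-34. CLK2 was the member that fell with CCF642-34. In resting cells a share of CLK1 and CLK4 transcripts is known to keep introns in the nucleus, and gene-level reads cannot tell these from spliced mRNA.

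**Figure D2:**
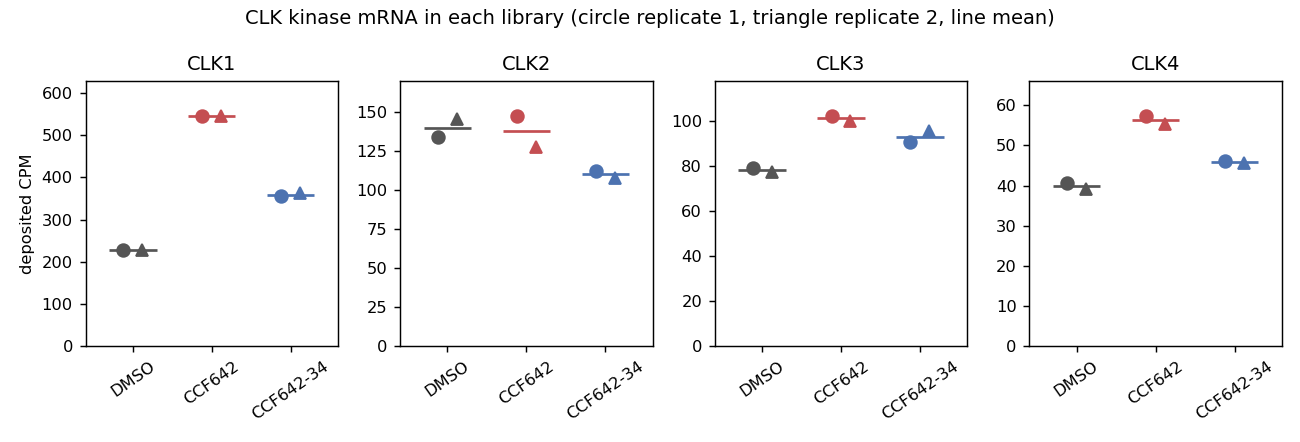
Deposited CPM (y axis, from 0) of the 4 CLK genes in each library, by group on the x axis; circles are replicate 1, triangles replicate 2 and lines the group mean. CLK1, CLK3 and CLK4 were highest with CCF642 and lowest with DMSO, and CLK2 was lowest with CCF642-34.

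Among SR proteins, 7 of 13 rose and 3 fell with CCF642, and the same counts were obtained with CCF642-34. Scaled to library size alone, 5 rose and 3 fell with CCF642, and 3 rose and 4 fell with CCF642-34. Of all genes with TMM scaling, 31.8% rose and 31.3% fell with CCF642, and 29.7% rose and 27.9% fell with CCF642-34. SRSF1, SRSF2 and SRSF9 fell with CCF642, and SRSF1, SRSF2 and SRSF11 with CCF642-34. SRSF1, the founding member of the family and a known oncoprotein, was measured at 426 and 429 CPM with DMSO, 273 and 272 with CCF642 and 266 and 269.7 with CCF642-34. Both treated groups lay well below DMSO and close to each other. Its log2 fold change was -0.52 (SE 0.041, adjusted p = 1.65e-15) with CCF642 and -0.58 (SE 0.041, adjusted p = 3.63e-17) with CCF642-34 in limma. SRSF1 accounted for 15.9% and 16.3% of the SR protein reads with DMSO and for 10.1% to 10.3% in the 4 treated libraries. SRSF2, a speckle protein recurrently mutated in myeloid neoplasms, was measured at 311 and 299 CPM with DMSO, 179 and 177 with CCF642 and 178 and 190.1 with CCF642-34. It was lower with both compounds, with log2 changes of -0.64 (SE 0.045, adjusted p = 3.17e-17) and -0.64 (SE 0.045, adjusted p = 6.23e-17) in limma, the largest decrease in the family with either compound.

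SRSF9, one of the shortest SR proteins, was called lower with CCF642 and was not called with CCF642-34. Its level was 36.6 and 36.0 CPM with DMSO, 25.5 and 23.0 with CCF642 and 33.2 and 30.7 with CCF642-34. Its log2 fold change was -0.44 (SE 0.084, adjusted p = 1.46e-05) with CCF642 in limma. With CCF642-34 it was -0.094 (95% interval -0.26 to 0.075, limma adjusted p = 0.349). SRSF11, an SR protein that contacts the splicing factor U2AF, was instead not called with CCF642, at 0.060 (called higher without CCF642 replicate 2, at 0.12), and fell with CCF642-34, at -0.13 (SE 0.043, adjusted p = 0.00813) in limma. The latter call was lost without DMSO replicate 1 and without CCF642-34 replicate 2. Leaving out each library in turn, the latter value ran from -0.16 to -0.10.

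SRSF3, the smallest SR protein and an adaptor for mRNA export, was measured at 370.1 and 360.3 CPM with DMSO, 488 and 487 with CCF642 and 496 and 514 with CCF642-34. All 4 treated libraries lay above both DMSO libraries. The log2 fold change was 0.55 (SE 0.039, adjusted p = 3.70e-17) with CCF642 and 0.56 (SE 0.039, adjusted p = 3.89e-17) with CCF642-34 in limma, the largest increase in the family with either compound. TRA2B, the transformer-2 homologue that binds enhancers rich in GAA, was measured at 277 and 279 CPM with DMSO, 361 and 364 with CCF642 and 370.2 and 380.4 with CCF642-34. It too was higher in every treated library. In log2 terms it changed by 0.52 (SE 0.040, adjusted p = 1.32e-15) with CCF642 and 0.52 (SE 0.040, adjusted p = 1.39e-15) with CCF642-34 in limma.

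Other SR proteins rose more with CCF642 than with CCF642-34. SRSF6, a regulator of tau and of other alternative exons, was measured at 275 and 268 CPM with DMSO, 349.7 and 350.2 with CCF642 and 283 and 279 with CCF642-34. Against DMSO it changed, in log2, by 0.50 (SE 0.041, adjusted p = 9.01e-15) with CCF642 and 0.14 (SE 0.041, adjusted p = 0.00342) with CCF642-34 in limma. The CCF642-34 libraries were only slightly above DMSO, and that call was lost without DMSO replicate 2 (log2 fold change 0.12) and with scaling to library size alone (0.050). TRA2A, the paralogue of TRA2B, was measured at 90.3 and 89.8 CPM with DMSO, 116 and 112 with CCF642 and 95.3 and 93.3 with CCF642-34. Its log2 fold change was 0.47 (SE 0.054, adjusted p = 1.33e-10) with CCF642 in limma. With CCF642-34 it was 0.15 (SE 0.054, adjusted p = 0.0123 in limma). This call was lost without either DMSO library, without CCF642-34 replicate 1, or with scaling to library size alone (0.066). Leaving out each library in turn gave values from 0.14 to 0.18.

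SRSF7, which together with SRSF3 couples splicing to export, rose by a log2 change of 0.34 with CCF642 and 0.25 with CCF642-34. SRSF4 rose by 0.20 and 0.17, and with scaling to library size alone both calls were lost. SRSF5, which like SRSF4 carries a pair of RNA recognition motifs, rose by 0.22 with CCF642 (not called with scaling to library size alone) and was not called with CCF642-34 at -0.057. With 1 library left out the latter value ran from -0.096 to -0.016, and scaling to library size alone gave -0.15 and called it lower. SRSF8, a gene that arose from a retrotransposed copy of SRSF2, was not called with CCF642 at 0.035 and rose by 0.21 with CCF642-34, a call lost with scaling to library size alone. SRSF10, which turns into a splicing repressor when dephosphorylated, passed the test with neither compound, at 0.043 (95% interval -0.11 to 0.19) and -0.041 (-0.19 to 0.11), and its level lay between 36.8 and 41.6 CPM.

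**Figure D3:**
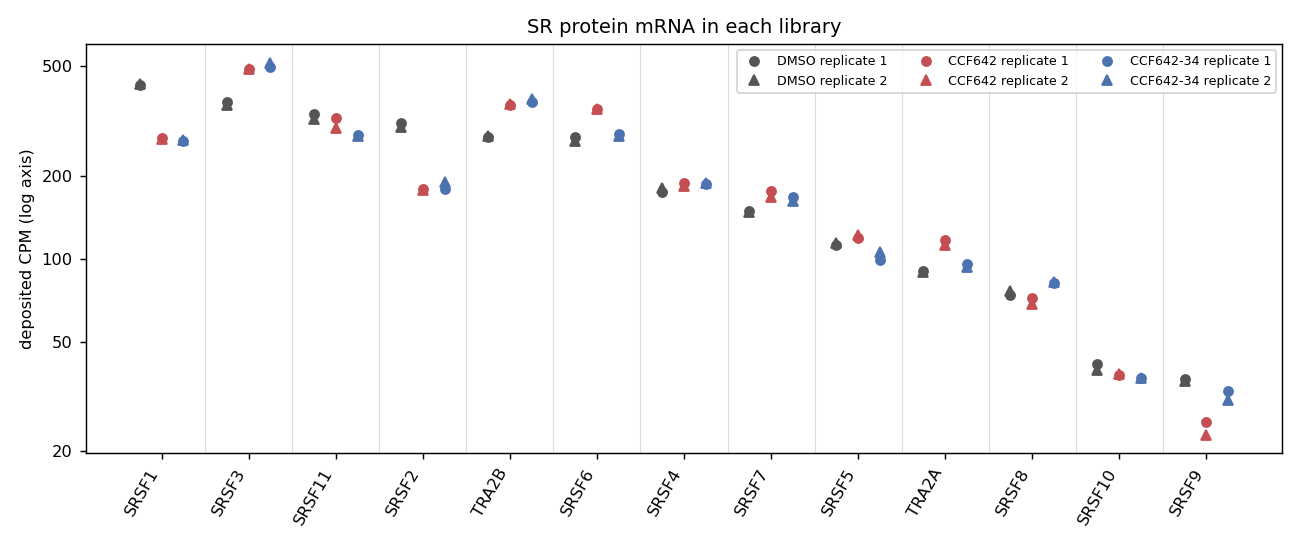
Deposited CPM (log y axis) of the 13 SR protein genes in each library, ordered by their mean with DMSO; colours mark the group and marker shapes the replicate. SRSF1 and SRSF2 lay below DMSO, and SRSF3 and TRA2B above it, in all 4 treated libraries.

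Promoter sequence was at hand for 34 of the 37 genes, from RefSeq on GRCh38.p14, as 250 bases before to 50 bases after the annotated start. Those of HNRNPA1, SRSF2 and TRA2A were not used here. The cAMP response element core TGACGT, a sequence that factors of the ATF and CREB families bind, was looked for on both strands. It occurred in 8.32% of all 27305 promoters and in 12% of the 8871 promoters of genes listed in these data, and in 4 of 11 SR protein promoters, 1 of 19 hnRNP promoters and 1 of 4 CLK promoters. The 4 SR protein genes were SRSF1, SRSF3, SRSF5 and TRA2B, and the others were HNRNPA2B1 and CLK4. SRSF1 fell with both compounds, SRSF3 and TRA2B rose with both and SRSF5 rose with CCF642, so genes that share these letters moved in both directions. The letters CCAAT, the box bound by nuclear factor Y, occurred in 35.7% of all promoters and 37.2% of those of listed genes, in 2 of 11 SR protein, 12 of 19 hnRNP and 1 of 4 CLK promoters. The paired heat shock element unit GAANNTTC occurred in 6.87% and 4.41%, in 1 SR protein promoter, 2 hnRNP promoters and no CLK promoter. A match is a run of letters and not evidence of binding. The promoters of SRSF1, SRSF3 and TRA2B are shown because these genes share the core and moved apart, and that of CLK1 because its mRNA rose most. Each is printed 5′ to 3′ on the strand of its gene with the core in capitals, which reads ACGTCA where the match is on the other strand, and CLK1 has none in this window. They lie at chr17:58007197-58007496 (minus strand), chr6:36594112-36594411 (plus strand), chr3:185937965-185938264 (minus strand) and chr2:200864609-200864908 (minus strand). Counted from the annotated start, the first base of the core is at -150 in SRSF1, -94 in SRSF3 and -134 in TRA2B.
SRSF1: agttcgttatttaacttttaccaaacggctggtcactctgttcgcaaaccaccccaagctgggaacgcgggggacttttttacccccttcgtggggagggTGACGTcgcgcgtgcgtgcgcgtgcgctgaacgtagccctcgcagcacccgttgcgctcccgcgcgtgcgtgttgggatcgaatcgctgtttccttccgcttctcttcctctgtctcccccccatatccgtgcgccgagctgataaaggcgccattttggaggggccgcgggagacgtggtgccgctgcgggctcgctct
SRSF3: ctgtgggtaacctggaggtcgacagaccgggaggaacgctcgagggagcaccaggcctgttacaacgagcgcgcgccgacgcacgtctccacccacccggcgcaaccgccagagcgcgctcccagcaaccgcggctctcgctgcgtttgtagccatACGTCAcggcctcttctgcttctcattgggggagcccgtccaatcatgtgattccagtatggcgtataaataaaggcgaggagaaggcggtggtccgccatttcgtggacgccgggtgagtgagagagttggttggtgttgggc
TRA2B: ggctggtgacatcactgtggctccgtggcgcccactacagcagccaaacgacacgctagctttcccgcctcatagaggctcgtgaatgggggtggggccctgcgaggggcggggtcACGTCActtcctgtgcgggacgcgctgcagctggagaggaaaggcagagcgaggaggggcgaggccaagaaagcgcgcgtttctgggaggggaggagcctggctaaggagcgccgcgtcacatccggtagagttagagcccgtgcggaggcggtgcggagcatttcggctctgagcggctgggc
CLK1: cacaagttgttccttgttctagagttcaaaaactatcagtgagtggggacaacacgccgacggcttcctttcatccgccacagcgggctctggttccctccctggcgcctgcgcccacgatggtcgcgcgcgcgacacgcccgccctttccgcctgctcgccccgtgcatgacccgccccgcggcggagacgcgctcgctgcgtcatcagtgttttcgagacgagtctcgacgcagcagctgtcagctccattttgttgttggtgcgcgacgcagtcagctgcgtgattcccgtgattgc

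Among hnRNPs, 11 of 20 fell and 5 rose with CCF642, and 12 fell and 5 rose with CCF642-34. Scaled to library size alone, 13 fell and 1 rose with CCF642, and 14 fell and 4 rose with CCF642-34. Among all genes with TMM scaling, 31.3% fell and 31.8% rose with CCF642, and 27.9% fell and 29.7% rose with CCF642-34. HNRNPAB, which binds RNA and single-stranded DNA and shuttles mRNA to the cytoplasm, showed the largest decrease of all 37 genes. It was measured at 292 and 302 CPM with DMSO, 158 and 154 with CCF642 and 169 and 159.5 with CCF642-34. Both treated groups lay far below DMSO. The log2 fold change was -0.79 (SE 0.046, adjusted p = 3.01e-20) with CCF642 and -0.76 (SE 0.046, adjusted p = 1.96e-19) with CCF642-34 in limma.

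HNRNPUL2, a relative of HNRNPU that acts in the response to DNA breaks, was measured at 70.3 and 70.5 CPM with DMSO, 38.6 and 40.7 with CCF642 and 46.3 and 44.3 with CCF642-34. It fell, with log2 changes of -0.68 (SE 0.068, adjusted p = 3.37e-12) and -0.54 (SE 0.068, adjusted p = 3.16e-09) in limma. HNRNPR, which binds AU-rich RNA and is close in sequence to SYNCRIP, was measured at 380.3 and 377 CPM with DMSO, 257 and 246 with CCF642 and 263 and 268 with CCF642-34. It fell with both, at -0.45 (SE 0.042, adjusted p = 2.16e-13) and -0.42 (SE 0.042, adjusted p = 3.33e-12) in limma. HNRNPA2B1, a reader of exonic silencers, was measured at 1320.0 and 1327 CPM with DMSO, 1009.8 and 936 with CCF642 and 961 and 975 with CCF642-34. In log2 terms it changed by -0.31 (SE 0.036, adjusted p = 2.80e-10) and -0.36 (SE 0.036, adjusted p = 5.61e-12) in limma, and no treated library reached the lower DMSO library for any of these genes.

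HNRNPM, which regulates alternative exons at GU-rich motifs, fell more with CCF642-34. Its level was 374 and 370.5 CPM with DMSO, 308 and 302 with CCF642 and 257 and 262 with CCF642-34, with no overlap between groups. Its log2 fold change was -0.15 (SE 0.041, adjusted p = 0.00105) with CCF642 and -0.43 (SE 0.041, adjusted p = 1.02e-12) with CCF642-34 in limma. HNRNPH3, HNRNPF, HNRNPD and HNRNPK fell with both compounds. HNRNPF and HNRNPH3 belong to the group that binds runs of G, HNRNPD (also AUF1) promotes decay of mRNA with AU-rich elements, and HNRNPK binds runs of C. Their log2 fold changes were -0.26, -0.28, -0.25 and -0.22 with CCF642, and -0.41, -0.21, -0.21 and -0.17 with CCF642-34. HNRNPU, a nuclear matrix protein also called SAF-A, fell with CCF642-34, at -0.29 (SE 0.036, adjusted p = 1.08e-09) in limma. With CCF642 its log2 fold change was -0.082 (SE 0.036, adjusted p = 0.0426) in limma, and this call was lost without DMSO replicate 1, DMSO replicate 2, CCF642 replicate 1 or CCF642-34 replicate 1, where the value stayed between -0.093 and -0.071.

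The hnRNPs that rose were led by HNRNPDL, a paralogue of HNRNPD whose protein acts on its own poison exon. It was measured at 315 and 314 CPM with DMSO, 419.8 and 403 with CCF642 and 389 and 401 with CCF642-34. All treated libraries lay above DMSO, and the log2 fold change was 0.52 (SE 0.040, adjusted p = 7.61e-16) and 0.42 (SE 0.040, adjusted p = 1.51e-12) in limma. HNRNPLL, which governs exon choice in the phosphatase gene PTPRC of lymphocytes, was measured at 53.2 and 50.8 CPM with DMSO, 51.2 and 53.9 with CCF642 and 59.5 and 59.1 with CCF642-34. It rose by 0.27 (SE 0.066, adjusted p = 3.95e-04) with CCF642-34 in limma. With CCF642 the libraries overlapped those of DMSO, and the log2 fold change was 0.15 (SE 0.066, adjusted p = 0.0479) in limma. This call was lost in 10 of 16 alternative analyses, among them each one that left out a library other than CCF642 replicate 1. Leaving out each library in turn gave values from 0.11 to 0.19. HNRNPL, its paralogue that binds CA repeats, was measured at 594 and 584 CPM with DMSO, 570.1 and 568 with CCF642 and 629.5 and 621 with CCF642-34. It rose by 0.18 (SE 0.037, adjusted p = 6.58e-05) with CCF642-34 in limma. With CCF642 its log2 fold change was 0.085 (SE 0.037, adjusted p = 0.0425) in limma, which turned to -0.049 with scaling to library size alone. That call was also lost without DMSO replicate 1, DMSO replicate 2, CCF642 replicate 2 or CCF642-34 replicate 1, where the value stayed between 0.073 and 0.097. HNRNPA1L2, a retrotransposed copy of HNRNPA1, lay between 11.9 and 15.5 CPM, rose by 0.32 and 0.36, and its reads may in part belong to HNRNPA1. Its call with CCF642 was lost with scaling to library size alone (0.19) and without DMSO replicate 2 or CCF642 replicate 2. That with CCF642-34 was lost without CCF642-34 replicate 2. Leaving out each library in turn, the values ran from 0.28 to 0.36 with CCF642 and from 0.31 to 0.42 with CCF642-34.

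HNRNPH1 and HNRNPC were called in opposite directions with the compounds. HNRNPH1, which binds runs of G and sets exon use in many genes, was measured at 593 and 588 CPM with DMSO, 622 and 593 with CCF642 and 432 and 446 with CCF642-34. Both DMSO libraries lay within or just below the range of the CCF642 libraries, and both CCF642-34 libraries lay below all others. Against DMSO it changed, in log2, by 0.17 (SE 0.038, adjusted p = 1.02e-04) with CCF642 in limma (0.040 and not called with scaling to library size alone) and -0.34 (SE 0.038, adjusted p = 1.66e-10) with CCF642-34. HNRNPC, which binds uridine tracts in nascent RNA and blocks exonisation of Alu elements, was measured at 467 and 457 CPM with DMSO, 401 and 384 with CCF642 and 465 and 471 with CCF642-34. Its log2 fold change was -0.100 (SE 0.039, adjusted p = 0.0237) with CCF642 and 0.11 (SE 0.039, adjusted p = 0.0145) with CCF642-34 in limma. Either call was lost without DMSO replicate 1 or DMSO replicate 2, the former also without CCF642 replicate 2 and the latter also without CCF642-34 replicate 2, with values of -0.11 to -0.073 and 0.095 to 0.12. With scaling to library size alone the values were -0.23 and 0.020, and the call with CCF642-34 was lost. HNRNPA1, the reference hnRNP that antagonises SRSF1 at splice sites, was measured at 29.8 and 31.8 CPM with DMSO, 28.4 and 26.0 with CCF642 and 23.7 and 23.4 with CCF642-34. It fell with CCF642-34, at -0.29 (SE 0.087, adjusted p = 0.00444) in limma, a call lost without DMSO replicate 2 (-0.24), and was not called with CCF642 at -0.045. HNRNPA0, HNRNPA3 and HNRNPUL1 passed the test with neither compound, and their log2 fold changes lay between -0.083 and 0.11. These outcomes were not firm. With CCF642-34, HNRNPA3 was called lower in 5 of 16 alternative analyses and HNRNPUL1 in 4, both among them with scaling to library size alone (-0.17 for each), without CCF642 replicate 1 and without CCF642 replicate 2 (-0.083 for HNRNPA3 and -0.080 for HNRNPUL1). With CCF642, library size alone gave calls for HNRNPA3 (-0.11) and HNRNPUL1 (-0.19), and HNRNPA0 was called higher in 5 of 16, at 0.23 without CCF642 replicate 2. For HNRNPA0 the CCF642 libraries stood apart, at 265 and 224 CPM, and enclosed the DMSO libraries at 245 and 251.

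**Figure D4:**
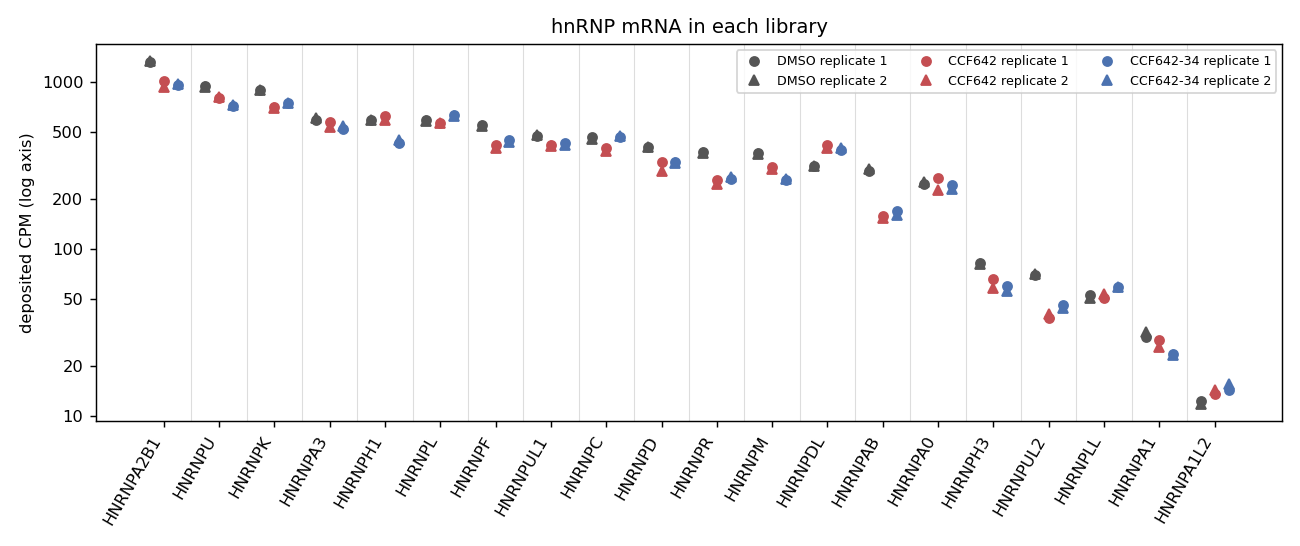
Deposited CPM (log y axis) of the 20 hnRNP genes in each library, ordered by their mean with DMSO; colours mark the group and marker shapes the replicate. HNRNPAB and HNRNPUL2 dropped most in the treated libraries, HNRNPDL rose, and HNRNPH1 was low only in the CCF642-34 libraries.

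The compounds were also compared with each other at the same dose and time. CCF642-34 libraries were called lower than CCF642 libraries in 14 of the 37 genes and higher in 3, which is 45.9% of them against 33.4% of all genes. Among all genes 17.5% were lower and 15.9% higher. Of the 9390 genes with a mean of at least 5 CPM, fitted alone, 3589 were called. No member differed by 2-fold, as against 0.308% of all genes that did so with an unadjusted limma p under 0.05. By family, 4 of 4 CLKs were lower and none higher, and a linear model of each gene alone kept 2 of these calls. Of the SR proteins, 4 of 13 were lower and 2 higher, and of the hnRNPs, 6 of 20 were lower and 1 higher. The median log2 difference was -0.35 over the CLKs, -0.068 over the SR proteins and 0.0045 over the hnRNPs, beside 0.0091 over all genes. With scaling to library size alone the split of all called genes turned from 1758 higher and 1930 lower to 2406 higher and 1488 lower. Among hnRNPs it turned from 1 higher and 6 lower to 6 higher and 3 lower, so no direction of that family between the compounds can be given, whereas 3 CLKs and 4 SR proteins stayed lower, with 2 SR proteins higher.

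CLK1 showed the largest difference of any member, -0.65 (SE 0.040, adjusted p = 2.92e-18) in limma. CLK2 and CLK4 were lower with CCF642-34, at -0.36 (SE 0.056, adjusted p = 1.36e-06) and -0.34 (SE 0.069, adjusted p = 1.42e-04) in limma. The call of CLK2 was lost in the linear model of each gene alone. With 1 library left out, the CLK2 value ran from -0.46 to -0.26. CLK3 differed by -0.17 (SE 0.055, adjusted p = 0.0178) in limma, and this call was lost without CCF642 replicate 1 (-0.15), without CCF642-34 replicate 1 (-0.13) and with scaling to library size alone (-0.12). Of the SR proteins, SRSF6, TRA2A, SRSF5 and SRSF11 were lower with CCF642-34, at a log2 difference of -0.36, -0.32, -0.28 and -0.19. SRSF9 and SRSF8 were higher, by 0.34 (SE 0.084, adjusted p = 0.00125) and 0.18 (SE 0.059, adjusted p = 0.0145) in limma. The call of SRSF8 was lost without CCF642 replicate 2 or either CCF642-34 library. Leaving out each library in turn gave SRSF8 values from 0.15 to 0.21. Of the hnRNPs, HNRNPH1 differed most, at -0.51 (SE 0.038, adjusted p = 2.58e-15) in limma, with HNRNPM at -0.28, HNRNPU at -0.21 and HNRNPA1 at -0.24. The call of HNRNPA1 was lost without CCF642 replicate 1 or either CCF642-34 library and with scaling to library size alone (-0.20). Leaving out each library in turn gave HNRNPA1 values from -0.30 to -0.18. HNRNPC was higher with CCF642-34, by 0.21 (SE 0.039, adjusted p = 3.32e-05) in limma. HNRNPA3 and HNRNPDL were called lower, at -0.10 and -0.10. Each of these calls was lost when any 1 library other than CCF642 replicate 2 was left out, and with scaling to library size alone (-0.060 and -0.059). Leaving out each library in turn gave values from -0.15 to -0.055 for HNRNPA3 and from -0.13 to -0.079 for HNRNPDL.

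For several genes that moved with both compounds, no difference between compounds was detected. The log2 difference of SRSF1 was -0.068 (95% interval -0.15 to 0.014), that of SRSF2 0.0041 (-0.086 to 0.094), that of SRSF3 0.0063 (-0.072 to 0.084) and that of TRA2B 0.0054 (-0.076 to 0.087). The sign of the values for SRSF2, SRSF3 and TRA2B turned with DESeq2 size factors. HNRNPAB differed by 0.028 (-0.064 to 0.12) and HNRNPR by 0.034 (-0.050 to 0.12). These intervals bound the difference and do not show that the compounds acted alike.

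**Figure D5:**
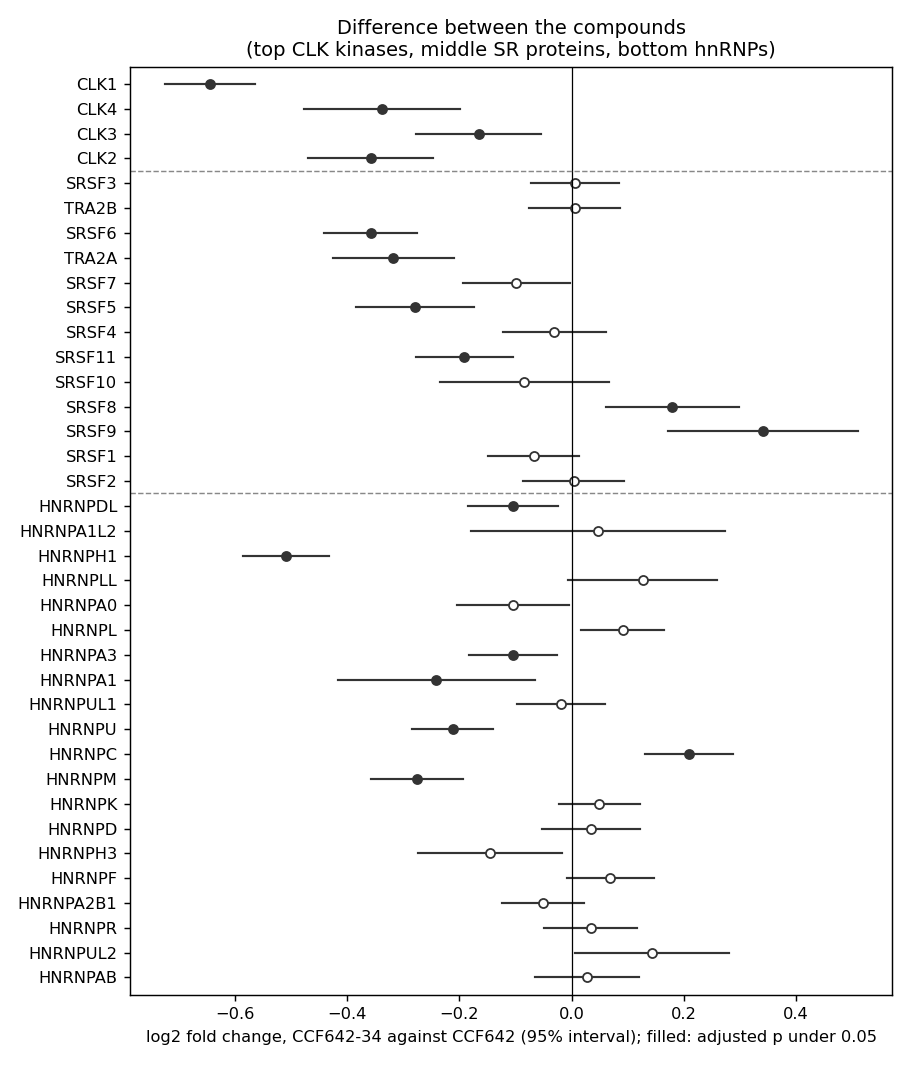
Log2 difference of each of the 37 genes between the compounds (x axis, CCF642-34 against CCF642, log2 of TMM-scaled CPM + 1); bars are 95% intervals from limma and filled points have an adjusted p under 0.05. All 4 CLK genes lay below 0, with CLK1 lowest at -0.65, whereas SRSF1, SRSF2, SRSF3 and TRA2B lay at or near 0.

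The annotation (GENCODE release 29) bears on how these levels can be read. Each of the 13 SR protein genes has at least 1 transcript annotated as a target of nonsense-mediated decay, as do 13 of 20 hnRNP genes (65%) and 3 of 4 CLK genes (75%), beside 44.9% of the 10880 listed protein-coding genes. Transcripts with a retained intron are annotated for 10 of 13 SR protein genes, 14 of 20 hnRNP genes and 3 of 4 CLK genes, beside 59.2% of listed genes. CPM per gene adds all of these up, so productive and unproductive transcripts were not told apart. Some members share exonic sequence with a neighbour, and the strand used for counting is not given in the sources used here, so their levels are uncertain. SRSF2 overlaps MFSD11 by 1106 bases, SRSF9 overlaps GATC by 1729 and HNRNPU overlaps COX20 by 3502, each on opposite strands. SRSF1 overlaps AC015813.2 by 1890 bases and HNRNPUL2 overlaps the read-through gene HNRNPUL2-BSCL2 by 2391, both on the same strand. HNRNPA1 has 74 pseudogenes named after it, HNRNPA3 has 16 and HNRNPC has 9, and how reads that fit several places were counted is likewise not given.

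Levels per length of the gene's exons, in CPM per kilobase with DMSO, put HNRNPK first of the 37 genes at 175, followed by HNRNPF at 168 and HNRNPA2B1 at 143. With the longest coding transcript as length, HNRNPA2B1 came first at 361, HNRNPK at 304 and HNRNPL at 238, so that the order among the top depended on the length used. CLK3 was last by both lengths, at 3.82 and 7.45, but its annotated lengths are large, at 20443 and 10498 bases. Without division by length, its mean with DMSO was 78.2 CPM, above that of CLK4 at 39.9. HNRNPA1, usually counted among the most abundant hnRNPs, ranked 34 by the first length and 36 by the second, at 6.05 and 7.48 CPM per kilobase.

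Other genes were taken from lists of kinases and importins, SR-related proteins, core spliceosome components and other splicing regulators. Of 29 SR-related proteins, which carry an arginine- and serine-rich stretch without being classical SR proteins, 21 rose and 1 fell with CCF642, and 11 rose and 9 fell with CCF642-34. Between the compounds, 19 were lower with CCF642-34 and none higher. Their median log2 fold change was 0.24 with CCF642 and 0.028 with CCF642-34, and the median difference was -0.16. Scaled to library size alone, 14 rose and 3 fell with CCF642, 7 rose and 9 fell with CCF642-34, and 14 were lower and 2 higher between the compounds. With TMM scaling, calls made up 75.9%, 69% and 65.5% of this list in the 3 comparisons. The shares of all genes, low ones included, were 63.1%, 57.6% and 33.4%. LUC7L, a U1 snRNP-associated factor, and RSRC2 rose most with CCF642, by 0.93 and 0.88. RBM39, a coactivator and splicing factor close to U2AF, and RSRC2 rose most with CCF642-34, by 0.82 and 0.73. ARGLU1 fell with both, at -0.26 and -0.34. NKTR, a cyclophilin with an SR domain, and the speckle scaffold SRRM2 differed most between compounds, at -0.59 and -0.52.

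Of 11 genes on the list of kinases and importins, 4 rose and 3 fell with CCF642, and 3 rose and 4 fell with CCF642-34. Between the compounds, 3 were lower with CCF642-34. Whether each of these 11 genes acts on SR proteins was not examined. Scaled to library size alone, 2 rose and 4 fell with CCF642, 2 rose and 5 fell with CCF642-34, and 2 were lower and 1 higher between the compounds. With TMM scaling, calls made up 63.6%, 63.6% and 27.3% of this list, beside 63.1%, 57.6% and 33.4% of all genes. DYRK1B, a kinase of the family of DYRK1A, was measured at 6.35 and 7.90 CPM with DMSO, 17.0 and 17.2 with CCF642 and 11.4 and 10.0 with CCF642-34, and rose by 1.28 (SE 0.13, adjusted p = 1.85e-12) and 0.61 (SE 0.13, adjusted p = 4.90e-05) in limma. DYRK2 was measured at 32.3 and 31.0, 10.1 and 9.34 and 12.3 and 11.5 CPM in the same order and fell with both, at -1.48 (SE 0.11, adjusted p = 9.82e-17) and -1.25 (SE 0.11, adjusted p = 4.41e-14) in limma. TNPO2, an importin, fell with both, at -0.72 and -0.83. SRPK3 rose by 0.45 with CCF642 (SE 0.18, adjusted p = 0.0250 in limma). Of 57 core spliceosome genes measured (58 listed), 23 rose and 21 fell with CCF642, 22 rose and 14 fell with CCF642-34, and between the compounds 13 were lower with CCF642-34 and 11 higher. These calls made up 77.2%, 63.2% and 42.1% of the genes measured, beside the same shares of all genes as above. BCAS2, a subunit of the PRP19 complex, was measured at 32.4 and 32.6 CPM with DMSO, 90.8 and 92.1 with CCF642 and 62.8 and 66.4 with CCF642-34. It rose by 1.60 (SE 0.064, adjusted p = 1.68e-26) and 1.06 (SE 0.064, adjusted p = 2.80e-19) in limma, and no other core gene rose by 2-fold with either compound. The helicase gene DDX46 fell with both, at -0.56 and -0.62. Of 41 other splicing regulators, 13 rose and 13 fell with CCF642, 7 rose and 16 fell with CCF642-34, and between the compounds 14 were lower with CCF642-34 and 3 higher. These calls made up 63.4%, 56.1% and 41.5% of the list, so against DMSO the shares were near those of all genes. MBNL2, a muscleblind protein, rose by 1.06 and 0.87, whereas RBFOX2, which binds UGCAUG, fell with both, at -1.23 and -0.90. SFPQ, a paraspeckle protein, and RBM5 were lower with CCF642-34 than with CCF642, at -0.42 and -0.43. With scaling to library size alone, 16 core genes rose and 27 fell with CCF642, and 14 rose and 21 fell with CCF642-34, with 16 higher and 9 lower between the compounds, while 8 of the other regulators rose and 24 fell with CCF642, and 5 rose and 23 fell with CCF642-34, with 6 higher and 11 lower between the compounds, so the balance of directions in these lists depended on the scaling.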

How the data were processed

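RNA-seq was performed on MM1.S cells in 3 groups of 2 libraries (DMSO, 3 µM CCF642 and 3 µM CCF642-34, 6 h). The authors deposited CPM values for 11048 gene symbols, the same in a table of the whole series and in 6 tables of single libraries. The submitters' processing notes name STAR, edgeR 3.24.3, limma 3.38.3 and the hg19 build, with no role given for them. The unit was read from the values. All values were whole multiples of 1 read (100%, tolerance 0.001 read), library totals were 20567313 to 28459677, and listed genes took 99.9% of reads. Every gene reached at least 1.50 CPM in some library, so genes below had been left out before deposit. Totals of this size leave the spread between libraries, more than counting error, to limit precision. Replicates differed by more than counting error (mean chi-square over genes with 1 degree of freedom 2.29, 4.65 and 4.04 for DMSO, CCF642 and CCF642-34).

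Libraries were grouped by their labels. A model without a replicate block, over all 3 groups, was fitted by limma 3.58.1 (lmFit, eBayes with trend) in R 4.3.3 on log2 of CPM scaled by TMM factors from edgeR 4.0.16, with a pseudocount of 1 CPM, which understates changes of low genes. Tests were two-sided with Benjamini-Hochberg adjustment over all 11048 genes, at 3 residual and 42.9 prior degrees of freedom. The script was tested on simulated data. Replicate numbers were not taken as pairs, since the deviations of libraries with the same number correlated at -0.047, -0.077 and 0.11. The members, the other gene lists and the genes named were chosen with earlier results of these data known. All CLK genes, TRA2A and TRA2B were named with values, and of the other members those called with the 3 largest increases and decreases per comparison, the rest being given by value, count or range. From each other list up to 2 increases and 2 decreases per comparison were named. Alternatives were other scalings, a pseudocount of 0.1 or 4 in place of 1, a floor of 5 on the mean CPM, edgeR 4.0.16 and DESeq2 1.42.0 on recovered reads, a gene-wise linear model, fits of 2 groups, a replicate block, and leaving out each library. The edgeR quasi-likelihood test on recovered reads called 6932, 6440 and 3724 genes in the 3 comparisons, beside 6973, 6362 and 3688 by limma.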

Additional observations from a re-analysis of the deposited data

How the results depend on the processing

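Across 16 alternatives, 19 of the 29 calls with CCF642, 21 of the 31 with CCF642-34 and 7 of the 17 between compounds held in all of them. Of the members not called, 0 of 8, 2 of 6 and 3 of 20 kept both their sign and the lack of a call in all of them. The cause of the losses was not tested. With scaling to library size alone, the medians for CCF642 were 0.066 (SR proteins), -0.22 (hnRNPs) and 0.43 (CLK kinases), those for CCF642-34 were 0.050, -0.30 and 0.22, and those between compounds were -0.023, 0.049 and -0.30. A pseudocount of 4 CPM gave 0.53 for CLK kinases with CCF642. The gene-wise linear model called 3 SR proteins, 3 hnRNPs and 2 CLK kinases between compounds, and over all genes 4106 with CCF642-34 and 738 between compounds, beside 6362 and 3688. Against DMSO it lost the calls of HNRNPC, HNRNPD, HNRNPH3 and HNRNPLL with CCF642. With CCF642-34 it lost those of CLK2, SRSF11, HNRNPC and HNRNPD. Between compounds it lost those of CLK2, CLK3, SRSF5, SRSF8, SRSF9, SRSF11, HNRNPA1, HNRNPA3, HNRNPC and HNRNPDL. Leaving out 1 library gave 4 to 10 hnRNPs called between compounds (4 without either CCF642-34 library) and a median of -0.037 to 0.010, whereas the CLK median between compounds ran from -0.41 to -0.29 and the hnRNP median with CCF642 from -0.12 to -0.082.

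Signs turned for small values. With library size alone they turned with CCF642 for CLK2 (-0.026), HNRNPA0 (-0.023), HNRNPA3 (-0.11), HNRNPL (-0.049), SRSF8 (-0.097), SRSF10 (-0.087) and SRSF11 (-0.074), with CCF642-34 for HNRNPA0 (-0.083), and between compounds for HNRNPUL1 (0.025) and SRSF4 (0.013). Of these, HNRNPL was the one called. Between compounds, DESeq2 size factors turned SRSF2 (-0.0040), SRSF3 (-0.0018) and TRA2B (-0.0026), as did DESeq2 on recovered reads (-0.0033, -0.0016 and -0.0026). When 1 library was left out, values with CCF642 ran from -0.0060 to 0.23 for HNRNPA0, from -0.10 to 0.013 for HNRNPA1 and from -0.028 to 0.071 for HNRNPA3, and with CCF642-34 from -0.035 to 0.049 for HNRNPA0. Between compounds they ran from -0.22 to 0.012 for HNRNPA0, -0.0020 to 0.099 for HNRNPA1L2, -0.10 to 0.00042 for HNRNPA2B1, -0.016 to 0.074 for HNRNPAB, -0.043 to 0.11 for HNRNPD, -0.042 to 0.0059 for HNRNPUL1, -0.036 to 0.047 for SRSF2, -0.013 to 0.028 for SRSF3 and -0.0088 to 0.022 for TRA2B.

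The libraries share only a number across groups. With a replicate block, HNRNPA0 was called with CCF642 (0.11), HNRNPL (0.085) and HNRNPU (-0.082) were not, and no other call among the 37 genes changed. With 3 residual degrees of freedom, the p-values of limma rest largely on variance shared across genes. The gene-wise linear model, which does not share it, kept the calls not named above as lost. CPM sets levels within a library, so a change in RNA per cell was not measured.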
